A study of Homo sapiens with 16 samples.

Results

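Immunoglobulin genes were examined on microarrays of RPMI-8226 and MM.1S, established human multiple myeloma cell lines. Probes were taken whose gene name began with IGH, IGK or IGL (apart from IGHMBP2) or was IGJ. Of the 50599 probes on the array that are no controls, 7 had such a name, for IGJ, IGLL1 (2 probes), IGLL5, IGLV1-44, IGKV1D-13 and IGLON5, and 5 of them passed the filter, for which the scanner software had to put both arrays of 1 or more groups well above background. IGLON5 met the rule by its letters alone, since it encodes a cell adhesion protein and no immunoglobulin. It stays in the counts of named probes and of both sets below. The array names most immunoglobulin segments only in the text description of the probe, so the 96 probes with such a description were taken as a second set, of which 60 passed the same filter. The 103 probes of both sets are described here, 65 of them past the filter, out of 26931 such probes on the array. A further 9 probes that name only an immunoglobulin clone or sequence tag were left out.

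Cells of each line were given the solvent DMSO, GSK126 (1 µM), UNC0638 (1 µM) or GSK126 + UNC0638 (the combination treatment) for 6 days, with 2 biological replicates per group and 16 arrays in all. GSK126 inhibits EZH2, which methylates H3K27, and UNC0638 inhibits G9a and the related GLP, which methylate H3K9. The labels name no further alteration of the cells, and each line stands for 1 tumour. The study asked what the inhibition of both enzymes changes in myeloma cells.

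An antibody is made of heavy and light chains, and each chain has a variable region and a constant region. The variable region is put together in each B cell from V, (D) and J segments by recombination, and a clone as a rule uses 1 productive heavy chain and 1 light chain, which is either kappa or lambda. The heavy chain's constant region sets the class of the antibody and can be exchanged by class switch recombination. Plasma cells, the normal counterparts of myeloma cells, transcribe their rearranged genes at very high levels, while V segments that were not rearranged can be transcribed weakly from their own promoters. IGLL1 and IGLL5 lie in or near the lambda locus and resemble its J and constant segments, and IGLL1 is part of the surrogate light chain of B cell precursors. IGJ (now JCHAIN) encodes the J chain, which joins IgA and IgM into polymers. RPMI-8226 and MM.1S are both known as lambda light chain lines.

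The probes are 60 bases long, and several share long runs with probes of neighbouring segments. The kappa probes are shown because IGKC gave the largest difference between the lines and kappa V probes were called with treatment in both, and the capitals mark the longest run of at least 12 bases that a probe shares with another printed one (no capitals, no such run). Positions are on hg19. IGKC is read at chr2:89156911-89156970 (minus strand), IGKV3-15 at chr2:89384678-89384737 (minus strand), IGKV3-7 at chr2:89277987-89278046 (minus strand) and IGKV1D-43 at chr2:90249232-90249291 (plus strand).
IGKC: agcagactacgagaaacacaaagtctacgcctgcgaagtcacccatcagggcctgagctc
IGKV1-16: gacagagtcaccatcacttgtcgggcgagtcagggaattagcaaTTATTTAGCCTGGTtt
IGKV1D-8 probe a: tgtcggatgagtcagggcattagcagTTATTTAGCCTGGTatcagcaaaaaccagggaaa
IGKV1D-8 probe b: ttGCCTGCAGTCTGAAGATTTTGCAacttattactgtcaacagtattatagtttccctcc
IGKV3-15: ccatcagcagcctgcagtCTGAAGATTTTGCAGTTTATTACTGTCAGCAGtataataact
IGKV3-7: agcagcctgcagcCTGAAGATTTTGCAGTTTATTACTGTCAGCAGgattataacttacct
IGKV1D-43: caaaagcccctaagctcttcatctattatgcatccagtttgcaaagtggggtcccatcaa
The IGKV3-15 and IGKV3-7 probes had 52 of 55 aligned bases in common, and IGKV1D-8 probe b had 45 of 53 in common with IGKV3-15 and 48 of 58 with IGKV3-7. IGKV3-7 is described as non-functional on the array. Signals of such probes cannot be assigned to a single segment, so these values are not independent of each other.

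The heavy chain V probes below are shown because they gave the largest heavy chain V differences in favour of MM.1S cells, and they are near copies of each other. They lie at chr14:106815755-106815814 (IGHV3-33), chr14:106845357-106845416 (IGHV3-35), chr14:107131060-107131119 (IGHV3-66 probe a) and chr14:107218688-107218747 (IGHV3-74 probe a), all on the minus strand.
IGHV3-33: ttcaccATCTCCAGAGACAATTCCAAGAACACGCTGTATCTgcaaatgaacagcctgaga
IGHV3-35: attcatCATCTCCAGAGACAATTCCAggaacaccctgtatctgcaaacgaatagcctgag
IGHV3-66 probe a: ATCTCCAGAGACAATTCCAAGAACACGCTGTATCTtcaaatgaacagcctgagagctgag
IGHV3-74 probe a: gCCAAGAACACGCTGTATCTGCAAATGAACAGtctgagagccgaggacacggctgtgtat
IGHV3-33 and IGHV3-66 probe a had 53 of 54 aligned bases in common, IGHV3-33 and IGHV3-35 54 of 59, and IGHV3-33 and IGHV3-74 probe a 37 of 39.

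Heavy chain constant probes are shown because IGHE had the largest rise in RPMI-8226 cells and because the IGHG1 and IGHG3 probes share a run. IGHE is read at chr14:106066443-106066502, IGHG1 probe a at chr14:106207810-106207869 and IGHG3 at chr14:106235594-106235653, on the minus strand.
IGHE: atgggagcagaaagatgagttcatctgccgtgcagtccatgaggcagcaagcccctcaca
IGHG1 probe a: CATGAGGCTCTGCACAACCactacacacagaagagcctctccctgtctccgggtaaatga
IGHG3: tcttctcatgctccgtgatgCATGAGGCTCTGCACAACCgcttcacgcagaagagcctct
The 2 probes of IGLL1 are shown because they behaved differently. They have no run of 12 bases in common and read different places of the gene, chr22:23915651-23915710 (probe a) and chr22:23917163-23917222 (probe b), on the minus strand.
IGLL1 probe a: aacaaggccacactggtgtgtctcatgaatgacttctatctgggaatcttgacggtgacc
IGLL1 probe b: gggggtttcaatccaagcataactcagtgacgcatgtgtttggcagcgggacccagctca

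A level below is the log2 signal of a probe minus the 75th percentile of its array, so a level of 0 is that percentile itself. Levels are compared between groups for the same probe and not between probes. A probe is called where limma's Benjamini-Hochberg adjusted p was under 0.05, with each line tested in its own fit over 8 arrays and all 16 arrays used for differences between lines. The share of spots well above background ran from 46.5% to 52.8% over the arrays, and no spot was saturated. Where both arrays of a group fell short of that mark for a probe, the fold is given as "at least". The reference was the dimmest signal that any probe well above background had on the array. The probe's own signal was used instead if that was higher. Such a fold is a lower bound only under the scanner software's background subtraction. After normexp background correction some changes were smaller than it. Among them were IGKC and IGHV3-33 between the lines, and IGHE (RPMI-8226) and IGHV1-24 (MM.1S) with the combination treatment. All arrays of a line were on 1 slide, so line and slide cannot be told apart, and a change common to most probes is lost in the scaling. The p-values measure only the spread between these samples, with 2 arrays per group. In these bulk samples fewer cells of a type and less RNA per cell cannot be told apart.

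Both lines carried the markers of plasma cells, with all 8 listed genes (SDC1, CD38, TNFRSF17, SLAMF7, IRF4, PRDM1, XBP1 and MZB1) well above background on all 8 arrays of each line. Of the 5 B cell genes, CR2 was above background on all 8 arrays of each line, FCER2 on 8 RPMI-8226 and 3 MM.1S arrays, MS4A1 on 5 and 2, and PAX5 and CD22 on none. Among the chains, the kappa constant probe was above background on all 8 RPMI-8226 arrays and on none of the MM.1S arrays. Of the 22 kappa V probes, 11 were above background on all 8 RPMI-8226 arrays and 3 on all 8 MM.1S arrays. Of the 34 heavy chain V probes, the order was the opposite, with 3 on all RPMI-8226 arrays and 12 on all MM.1S arrays. The 28 lambda V probes gave 8 and 8, both lambda constant probes were above background on all arrays of both lines, and so were the 3 lambda-like probes and IGJ. Of the 8 heavy chain constant probes, those for IGHM and IGHD, the first classes a B cell makes, were not well above background on any array. Of the 3 V probes with positions outside the loci, 2 were above background on all 8 MM.1S arrays and none on any RPMI-8226 array. These were IGHV3/OR16-8 and a probe described as IGHV3-15, which has another probe in the heavy chain locus. Whether they read transcripts of other IGHV3 segments was not tested.

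The first comparison set the lines against each other under DMSO. RPMI-8226 cells had far more kappa chain signal and IgA heavy chain signal, and MM.1S cells more IGHG signal and more signal of a group of heavy chain V probes of the IGHV3 family. Both had high lambda constant and J chain signal. limma called 28 of the 60 described probes higher and 24 lower in RPMI-8226 cells, and 2 of the 5 named probes higher, where 57.7% of all 26931 probes were called, 28.4% higher and 29.3% lower. Probes that passed the filter only through 1 line had to differ, so these counts describe the lines and no more.

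IGKC, the kappa constant region, stood at 4.66 and 4.95 in RPMI-8226 cells under DMSO and was not well above background in MM.1S cells, where its mean signal was -7.08 against 4.81. It was at least 770.4-fold higher in RPMI-8226 cells (limma adjusted p = 1.40e-10). Among the V probes, IGKV3-15 stood at 1.30 and 1.71 and IGKV1D-43 at 1.22 and 2.19 in the same cells. Neither was above background on the MM.1S DMSO arrays, so that the difference was at least 78.3-fold (limma adjusted p = 1.53e-08) and at least 89.8-fold (limma adjusted p = 3.26e-07). IGKV3-7 was at least 75-fold higher and IGKV1D-8 probe a at least 52.8-fold higher. The median over the 13 kappa V probes that passed was 5.15, RPMI-8226 minus MM.1S, against -0.02 over all probes, and 12 of the 13 were called. The exception was IGKV2D-29, at -0.05, named after its value was seen. Since 4 of the 13 passed the filter through RPMI-8226 cells alone, these figures describe the probes and support nothing further. After normexp background correction the differences were smaller, 7.59 against 11.9 for IGKC and 4.27 against 7.67 for IGKV3-15, and still called.

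Among heavy chain constant probes, IGHA1 (the constant region of IgA1) stood at 4.5 and 6.14 in RPMI-8226 cells and at -0.54 and -1.11 in MM.1S cells. Its difference was 6.15 ± 0.64 on the log2 scale (SE, limma adjusted p = 1.48e-05), and IGHA2 differed by 3.95 in the same direction (limma adjusted p = 1.94e-04). IGHG1, the constant region of IgG1, lay the other way, at 2.40 and 3.02 against 4.52 and 4.39 for probe a, a difference of -1.74 ± 0.29 (limma adjusted p = 4.42e-04). IGHG3 differed by -2.59 ± 0.38 (limma adjusted p = 1.66e-04), and IGHG1 probe b by -1.85. The arrays of the lines did not overlap for any of these 5 probes, where 39% of all probes had no overlap with RPMI-8226 cells higher and 39.8% with them lower. IGHE was not well above background under DMSO in either line, and no fold is given.

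Of the 19 heavy chain V probes, MM.1S cells were higher at 12 and RPMI-8226 cells at 5. Only 8 of the 19 passed the filter within RPMI-8226 cells, against 17 within MM.1S cells, so these counts support nothing further. IGHV3-33 stood at 3.83 and 3.76 in MM.1S cells and was not above background in RPMI-8226 cells on any array, a difference of at least 292-fold (limma adjusted p = 1.32e-11). The near copies IGHV3-66 probe a, IGHV3-74 probe a and IGHV3-35 were at least 191-fold, 179-fold and 125-fold higher in MM.1S cells. IGHV3-35 is described as non-functional, and its probe has 54 of 59 bases in common with that of IGHV3-33. IGHV1-24 and IGHV1-46 lay the other way, at least 23.5-fold and at least 17.2-fold higher in RPMI-8226 cells. After normexp background correction the IGHV3-33 difference was -6.46 against -10.4. IGHV1-46 was named because of its later change with treatment, after its values were seen.

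On the lambda side both lines had constant region signal, and V probes differed either way. IGLC2 stood at 8.10 and 8.40 in RPMI-8226 cells and 7.71 and 7.68 in MM.1S cells for probe a, a difference of 0.55 (limma adjusted p = 0.00262), and probe b differed by 0.66 (limma adjusted p = 3.82e-04). IGLV1-36 had the largest lambda difference, with -3.88 on average in RPMI-8226 cells and 5.64 and 5.02 in MM.1S cells, which is -9.21 ± 0.39 (limma adjusted p = 1.66e-08). Of the 17 lambda V probes, 5 were called higher and 7 lower in RPMI-8226 cells. IGLV6-57 stood high in both, at 6.71 and 7.15 against 8.12 and 8.17.

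IGLL1 probe a stood at 8.06 and 8.41 in RPMI-8226 cells and at 5.36 and 5.28 in MM.1S cells, a difference of 2.91 (limma adjusted p = 4.05e-07). Its probe b, elsewhere in the gene, stood at -2.87 and -0.59 against -3.72 and -3.44, a difference of 1.85 (limma adjusted p = 0.0337). IGLL5 stood at 8.78 and 9.01 against 9.07 and 9.02 and was not called (-0.15, limma adjusted p = 0.3). IGJ stood at 5.29 and 5.47 in RPMI-8226 cells and 5.20 and 5.14 in MM.1S cells. Its arrays did not overlap, but the difference of 0.21 was not called (limma adjusted p = 0.355).

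**Figure D1:**
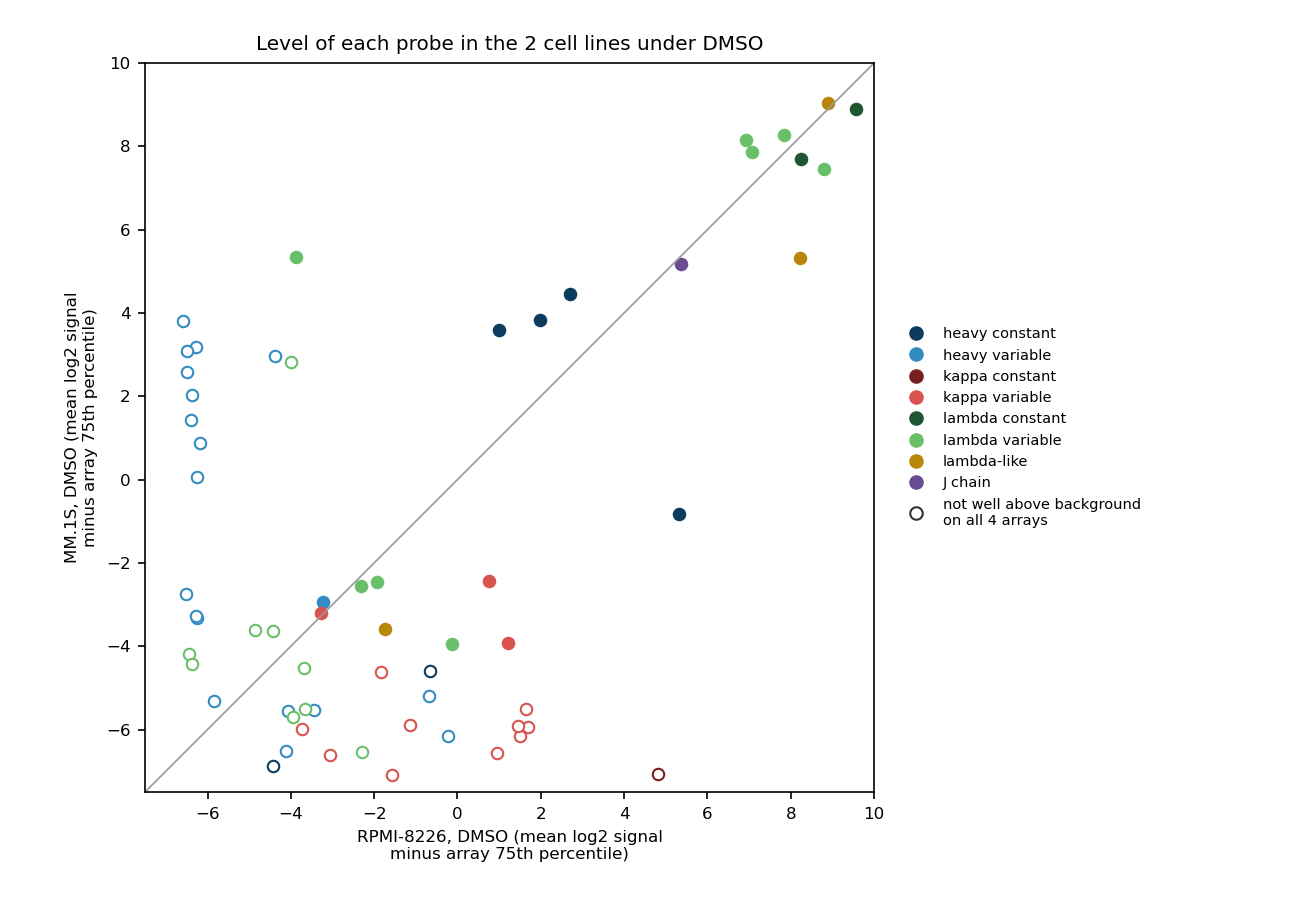
Mean level of each immunoglobulin probe under DMSO in RPMI-8226 cells (x axis) and MM.1S cells (y axis), as log2 signal minus the array's 75th percentile, coloured by chain, with open points where not all 4 arrays were well above background and a line of equality. The called kappa probes lie to the right of the line (IGKC at 4.81 and -7.08), a group of heavy chain V probes lies above it, and lambda constant and J chain probes lie near it.

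The second comparison asked what the inhibitors changed in RPMI-8226 cells. With the combination treatment kappa V probes fell together, IGHE appeared above background, and the lambda constant, lambda-like and J chain probes were not called. Of the 43 described probes tested, 3 were called higher and 11 lower, against 12.4% of all 23199 probes, 7.2% higher and 5.17% lower, and none of the 5 named probes was called. The median change of the described probes was -0.52, and -0.13 over all probes.

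Of the 13 kappa V probes, 9 fell with the combination treatment and none rose, with a median of -1.74. IGKV3-15 stood at 1.30 and 1.71 with DMSO, -0.25 and 0.47 with GSK126, 1.32 and 1.54 with UNC0638, and -0.33 and -0.04 with the combination treatment. IGKV1D-8 probe b stood at 1.41 and 1.88, 0.02 and 0.52, 1.56 and 1.83, and -0.33 and 0.15 in the same order of groups. In both, the GSK126 and combination arrays lay below every DMSO and UNC0638 array. The changes with the combination treatment were -1.70 for IGKV3-15 (limma adjusted p = 0.0135) and -1.74 ± 0.27 for IGKV1D-8 probe b (limma adjusted p = 0.0117).

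IGKV1D-43 stood at 1.22 and 2.19 with DMSO, -0.49 and 0.46 with GSK126, 1.09 and 1.48 with UNC0638, and -1.03 and -0.31 with the combination treatment. It had the largest called fall, -2.37 ± 0.45 (limma adjusted p = 0.0224). IGKV1-16 fell from -1.45 and -0.83 to -2.82 and -2.99, a change of -1.77 ± 0.27 (limma adjusted p = 0.0111) that was -1.02 after normexp background correction, and IGKV1D-8 probe a fell from 0.69 and 1.19 to -1.11 and -0.71, a change of -1.84 ± 0.30 (limma adjusted p = 0.0137). IGKV1D-33 fell by 1.99 on the log2 scale (limma adjusted p = 0.0224). The other 3 called probes, IGKV3-7, IGKV1-27 and IGKV3-11, fell by 1.68, 1.67 and 0.97. The last 2 of these were named to complete the count, after their values were seen.

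Arrays did not overlap, with the combination treatment lower, for 12 of the 13 kappa V probes, against 39.2% of all probes. For GSK126 alone the same held for 12 of the 13, against 23.5%, and for UNC0638 alone for 2 of the 13, against 24.7%. The medians were -1.39 with GSK126 and -0.12 with UNC0638, where all probes had -0.05 and -0.03. Neither agent alone gave a call at a kappa V probe, where 0.599% and 0.634% of all probes were called. Same-numbered RPMI-8226 arrays deviated together, and with the replicate number as a block, 8 of the 13 fell with GSK126 (limma adjusted p between 0.0123 and 0.0409), where 0.328% of all probes did in the same fit, and 10 with the combination treatment, where 9.96% did. These comparisons share the DMSO arrays.

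Compared directly, 6 of the 13 kappa V probes were lower with the combination treatment than with UNC0638 (median -1.62), where 3.39% of all probes were called and 0.698% were lower, and 8 with the replicate block, where 1.69% were lower. Against GSK126 none was called (median -0.36), where 2.55% of all probes were. The count against DMSO rested on single arrays. It was 9 without DMSO replicate 1, 1 without DMSO replicate 2, 0 without replicate 1 of the combination treatment and 6 without its replicate 2, with medians between -1.97 and -1.49. The count against UNC0638 was 0 or 1 without any one array.

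The kappa constant probe IGKC stood at 4.66 and 4.95 with DMSO, 4.39 and 4.66 with GSK126, 4.35 and 4.58 with UNC0638, and 3.87 and 4.26 with the combination treatment. The combination arrays lay below all the others. The change of -0.74 ± 0.21 was not called (limma adjusted p = 0.0631), and was called with the replicate block (limma adjusted p = 0.0127).

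**Figure D2:**
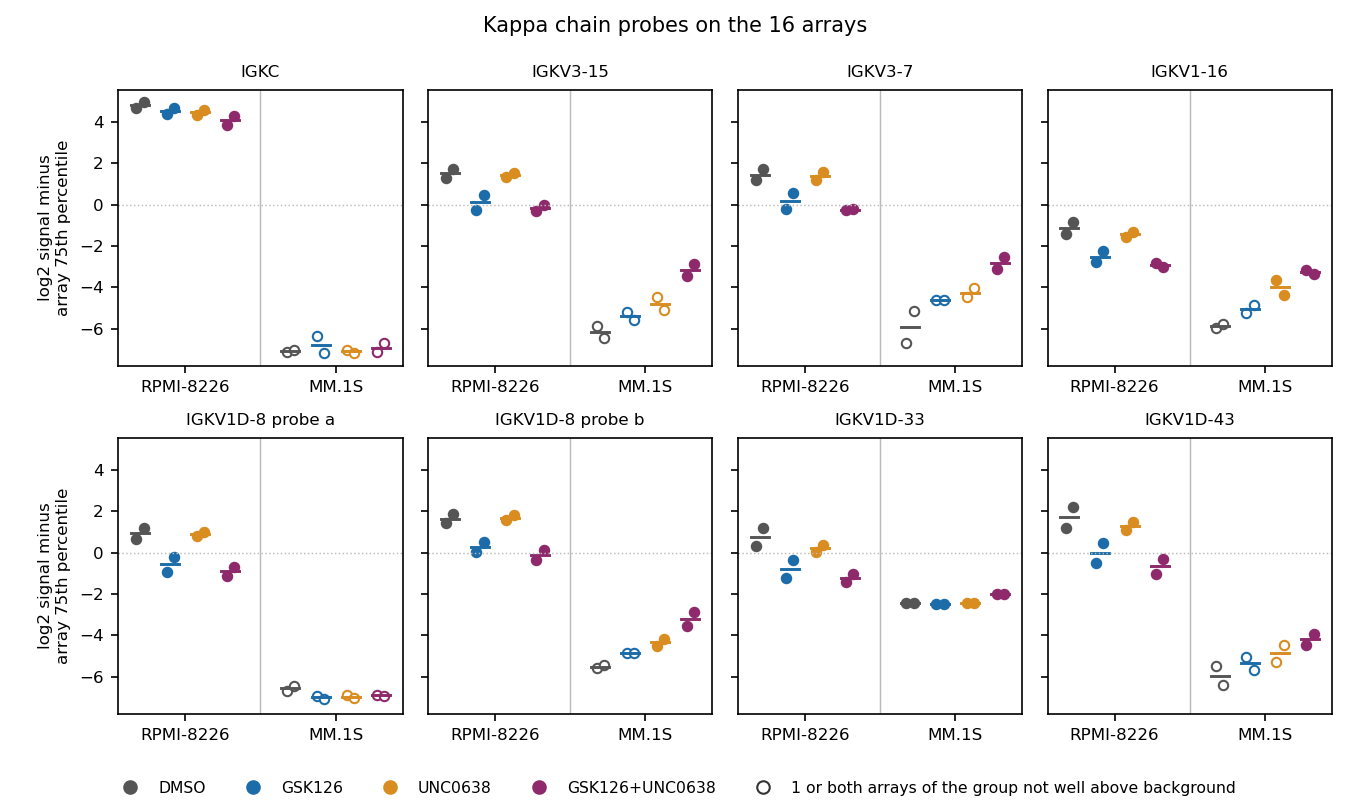
Level of 8 kappa chain probes on each of the 16 arrays, as log2 signal minus the array's 75th percentile, with a bar at the mean of each group of 2 and open points for groups in which 1 or both arrays were not well above background. In RPMI-8226 cells the V probes sit lower with GSK126 and with the combination treatment (IGKV3-15 from 1.30 and 1.71 to -0.33 and -0.04), and in MM.1S cells several rise from background (IGKV3-15 to -3.45 and -2.89).

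Among heavy chain probes, IGHE, the constant region of IgE, was the largest rise in RPMI-8226 cells. It stood at -4.48 and -4.39 with DMSO, not above background, -2.99 and -3.19 with GSK126, -3.10 and -2.87 with UNC0638, and -1.01 and -1.34 with the combination treatment. The groups did not overlap, apart from those of the single agents. The rise was at least 9.21-fold with the combination treatment (limma adjusted p = 3.25e-04), at least 2.45-fold with GSK126 (limma adjusted p = 0.0399) and at least 2.63-fold with UNC0638 (limma adjusted p = 0.0283), the single agents having 0.547% and 0.556% of all probes called higher. The combination treatment was higher than GSK126 by 1.91 on the log2 scale (limma adjusted p = 0.00393) and than UNC0638 by 1.81 (limma adjusted p = 0.00469). IGHE passed the filter in these cells through treated groups alone, so its calls against DMSO support nothing further. The call with the combination treatment held without each array in turn, and its change was 1.45 on the log2 scale after normexp background correction, against 3.26. The single-agent calls of IGHE were lost whichever of these arrays was left out, after normexp and without a filter, and that with GSK126 also with quantile normalization.

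The other heavy chain constant probes were not called. IGHA1 stood at 4.5 and 6.14 with DMSO and 3.41 and 4.68 with the combination treatment, which overlapped. Its change of -1.28 had a limma adjusted p of 0.284, and of 0.0104 with the replicate block. IGHG1 probe a stood at 2.40 and 3.02 with DMSO, 3.35 and 3.59 with GSK126, 1.81 and 2.55 with UNC0638 and 2.57 and 3.21 with the combination treatment, and IGHG3 was likewise above both DMSO arrays with GSK126 alone (1.95 and 2.02 against 0.41 and 1.57), with no call for either.

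Of the 8 heavy chain V probes tested in RPMI-8226 cells, 2 rose with the combination treatment. IGHV1-3 was not above background with DMSO, at -5.95 and -5.76, and stood at -3.92 and -2.86 with the combination treatment, at least 2.0-fold higher (limma adjusted p = 0.0213). It passed the filter in these cells through treated groups alone, so this call supports nothing further. IGHV1-69 stood at -4.20 and -4.05 with DMSO and at -3.18 and -2.44 with the combination treatment, a rise of 1.32 ± 0.25 (limma adjusted p = 0.0215). With UNC0638 alone IGHV1-3 stood at -3.48 and -3.46 and IGHV1-69 at -3.03 and -2.82, with no call, while the replicate block called IGHV1-3 (limma adjusted p = 0.0279). Both calls with the combination treatment were lost after normexp background correction (0.46 for IGHV1-3 and 0.45 for IGHV1-69) and without either DMSO array, and that of IGHV1-3 also without replicate 2 of the combination treatment.

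Of the 13 lambda V probes, 2 fell with the combination treatment and none rose (median -0.52). IGLV6-57 stood at 6.71 and 7.15 with DMSO and 6.15 and 6.21 with the combination treatment, and fell by 0.75 ± 0.18 on the log2 scale (limma adjusted p = 0.0436). This call was kept without DMSO replicate 1 (-0.98) and lost without DMSO replicate 2 (-0.53) and without either combination array, as it was without a filter, with the 16-array percentile and with quantile normalization (-0.43). IGLV7-46, a gene or pseudogene by its description, stood at -3.71 and -3.63 and was not above background with the combination treatment (-5.13 and -4.56), at least 1.59-fold lower (limma adjusted p = 0.0189). It was named because the count was 2, after its value was seen. With the replicate block 4 lambda V probes were called. The IGLC2 probes changed by -0.35 and -0.20 (limma adjusted p = 0.201 and 0.371).

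IGLL1 probe a stood at 8.06 and 8.41 with DMSO and 7.68 and 7.17 with the combination treatment, a difference of -0.81 that was not called (limma adjusted p = 0.0563) and was with the replicate block (limma adjusted p = 0.0485). IGLL1 probe b changed by -0.60 (limma adjusted p = 0.637) and IGLL5 by -0.30 (limma adjusted p = 0.240). IGJ stood at 5.29 and 5.47 with DMSO, 4.88 and 5.47 with GSK126, 5.11 and 5.16 with UNC0638, and 5.12 and 5.16 with the combination treatment. Its change of -0.24 was not called (limma adjusted p = 0.475) and turned to 0.02 under quantile normalization. IGLON5, the adhesion gene, changed by -0.49 and was not called.

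The third comparison asked the same of MM.1S cells, in which limma called 53.9% of all 25102 probes with the combination treatment, 22.2% higher and 31.7% lower. Most kappa V probes tested rose, while the IGHG and lambda constant probes and every called lambda V probe fell. Of the 50 described probes tested, 10 were called higher and 13 lower, a median change of -0.07 against -0.12 over all probes, and of the 5 named probes 1 was higher and 2 lower. Scaling to the percentile over probes above background on all 16 arrays moved the median of all probes to 0.07 and the split of the described probes to 14 higher and 10 lower. In RPMI-8226 cells the same scaling moved the median of all probes from -0.13 to 0.00.

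Of the 9 kappa V probes tested, 7 rose with the combination treatment and none fell, with a median of 1.76. IGKV3-7 stood at -6.69 and -5.14 with DMSO, -4.61 and -4.62 with GSK126, -4.47 and -4.05 with UNC0638, and -3.12 and -2.54 with the combination treatment. IGKV3-15 stood at -5.86 and -6.47, -5.20 and -5.56, -4.48 and -5.10, and -3.45 and -2.89 in the same order. In both, only the combination arrays were all above background, and they lay above every other array. IGKV3-7 was at least 3.87-fold higher than with DMSO (limma adjusted p = 0.00324) and IGKV3-15 at least 3.06-fold (limma adjusted p = 8.16e-04).

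IGKV1-16 stood at -5.98 and -5.79 with DMSO, -3.65 and -4.35 with UNC0638 and -3.16 and -3.35 with the combination treatment, at least 2.89-fold higher (limma adjusted p = 5.92e-04). IGKV1D-8 probe b was at least 2.99-fold higher (limma adjusted p = 7.41e-04) and IGKV1D-43 at least 1.52-fold higher (limma adjusted p = 0.0147), the latter not called without DMSO replicate 2 or without replicate 2 of the combination treatment. These 5 were not above background on either DMSO array and passed the filter through treated groups alone, so a count over them supports nothing further. The other called probes were above background on all 8 arrays. IGKV1-27 stood at -3.89 and -3.97 with DMSO and -2.41 and -1.96 with the combination treatment, a rise of 1.74 ± 0.20 (limma adjusted p = 9.69e-04), and IGKV1D-33 rose by 0.46 ± 0.07 (limma adjusted p = 0.00274). All these levels lay below those of the same probes in RPMI-8226 cells with the same treatment, and IGKC was not well above background on any MM.1S array. After normexp background correction 7 were still called, with a median of 0.58. UNC0638 alone gave 4 calls, all higher, where 12.8% of all probes were higher and 16.5% lower, and GSK126 alone gave none, where 7.58% of all probes were called.

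The heavy chain constant probes of IgG fell. IGHG1 probe a stood at 4.52 and 4.39 with DMSO, 4.38 and 4.21 with GSK126, 4.21 and 4.04 with UNC0638, and 3.92 and 3.62 with the combination treatment. The combination arrays lay below all others. The change was -0.68 ± 0.14 for IGHG1 probe a (limma adjusted p = 0.00719), -0.67 for IGHG1 probe b (limma adjusted p = 0.00653) and -0.75 for IGHG3 (limma adjusted p = 0.00513), and quantile normalization left 1 of these calls.

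The IgA probes lay the other way. IGHA1 stood at -0.54 and -1.11 with DMSO, -0.93 and -1.75 with GSK126, 0.82 and 0.82 with UNC0638, and 0.12 and -0.08 with the combination treatment. With UNC0638 alone it was 1.64 ± 0.30 higher than with DMSO (limma adjusted p = 0.0122), and IGHA2 was 1.44 higher (limma adjusted p = 0.0475). With the combination treatment the arrays of IGHA1 also lay above those with DMSO, but the difference of 0.84 was not called (limma adjusted p = 0.0554). IGHE was not well above background on any MM.1S array.

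IGHV3-33, IGHV3-35, IGHV3-66 probe a and IGHV3-74 probe a, which set MM.1S cells apart, were not called with the combination treatment. IGHV3-33 stood at 3.83 and 3.76 with DMSO, 3.32 and 3.54 with GSK126, 3.97 and 4.15 with UNC0638, and 3.77 and 3.85 with the combination treatment, and its arrays with DMSO and the combination treatment overlapped. IGHV3-74 probe a changed from 3.1 and 3.09 to 2.95 and 2.87, a direction that turned with the 16-array percentile and with quantile normalization. Of the 17 heavy chain V probes, 3 rose and 1 fell. Those that rose were not above background on either DMSO array and passed the filter through treated groups alone, so the count supports nothing further. IGHV1-24 stood at -6.06 and -6.25 with DMSO, not above background, and at -3.90 and -3.85 with the combination treatment, at least 1.88-fold higher (limma adjusted p = 0.00107). Its change was 2.28 on the log2 scale, and 0.40 after normexp background correction. IGHV1-46 and IGHV1-18, named to complete the count, were at least 2.82-fold and at least 2.21-fold higher. IGHV3-13 stood at -3.19 and -3.46 and was not above background with the combination treatment (-4.80 and -4.70), at least 2.68-fold lower (limma adjusted p = 0.00187), a change of -1.42 that was -0.44 after normexp. With UNC0638 alone 6 of the 17 were called higher and none lower, where 12.8% of all probes were higher and 16.5% lower. The count was smaller without any 1 of the arrays involved. Some of the 17 passed the filter through treated groups alone, so this count supports nothing further either.

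On the lambda side, both constant probes and 7 of the 15 V probes fell with the combination treatment, and no V probe rose (median -0.84). IGLV6-57 stood at 8.12 and 8.17 with DMSO, 7.78 and 7.80 with GSK126, 7.71 and 7.73 with UNC0638, and 7.48 and 6.88 with the combination treatment, a fall of 0.97 ± 0.19 on the log2 scale (limma adjusted p = 0.00636). IGLV3-27 stood at -2.83 and -2.28 with DMSO and -4.29 and -4.48 with the combination treatment, a change of -1.83 ± 0.23 (limma adjusted p = 0.00133) that was -0.76 after normexp. The arrays of DMSO and the combination treatment did not overlap for either. IGLV7-43 was at least 1.77-fold lower (limma adjusted p = 0.0387), with no call without DMSO replicate 1 or without replicate 2 of the combination treatment, and the other called V probes were IGLV4-60, IGLV1-50, IGLV2-14 and IGLV2-8, with changes from -0.92 to -0.40. IGLV1-36, which set the lines apart, stood at 5.64 and 5.02 with DMSO and 4.77 and 5.12 with the combination treatment, which overlapped.

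The IGLC2 probes fell by 0.47 (limma adjusted p = 0.00294) and 0.31 (limma adjusted p = 0.0293) on the log2 scale, and after quantile normalization neither was called. The call of probe b was also lost without any 1 of the 4 arrays, without a filter and with the 16-array percentile (-0.12). IGLL1 probe a stood at 5.36 and 5.28 with DMSO, 4.91 and 4.90 with GSK126, 4.87 and 4.62 with UNC0638, and 4.54 and 4.18 with the combination treatment. It fell by 0.96 ± 0.14 on the log2 scale (limma adjusted p = 0.00254). IGLL1 probe b stood at -3.72 and -3.44 with DMSO and -2.40 and -2.94 with the combination treatment and rose by 0.91 ± 0.27 (limma adjusted p = 0.0319). The rise of probe b was called without replicate 2 of the combination treatment (1.18) but not without its replicate 1 (0.64) or without either DMSO array (0.77 and 1.05), nor without a filter or with quantile normalization, and it was 0.42 after normexp. IGLL5 fell by 0.34 ± 0.08 (limma adjusted p = 0.0126), a call lost with the 16-array percentile (-0.15) and without DMSO replicate 1, and a direction that turned to 0.01 with quantile normalization. IGJ stood at 5.20 and 5.14 with DMSO, 5.15 and 5.18 with GSK126, 5.06 and 5.07 with UNC0638, and 4.98 and 5.34 with the combination treatment. Its groups overlapped and its change of -0.01 was not called, and it became 0.18 with the 16-array percentile and 0.43 with quantile normalization.

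**Figure D3:**
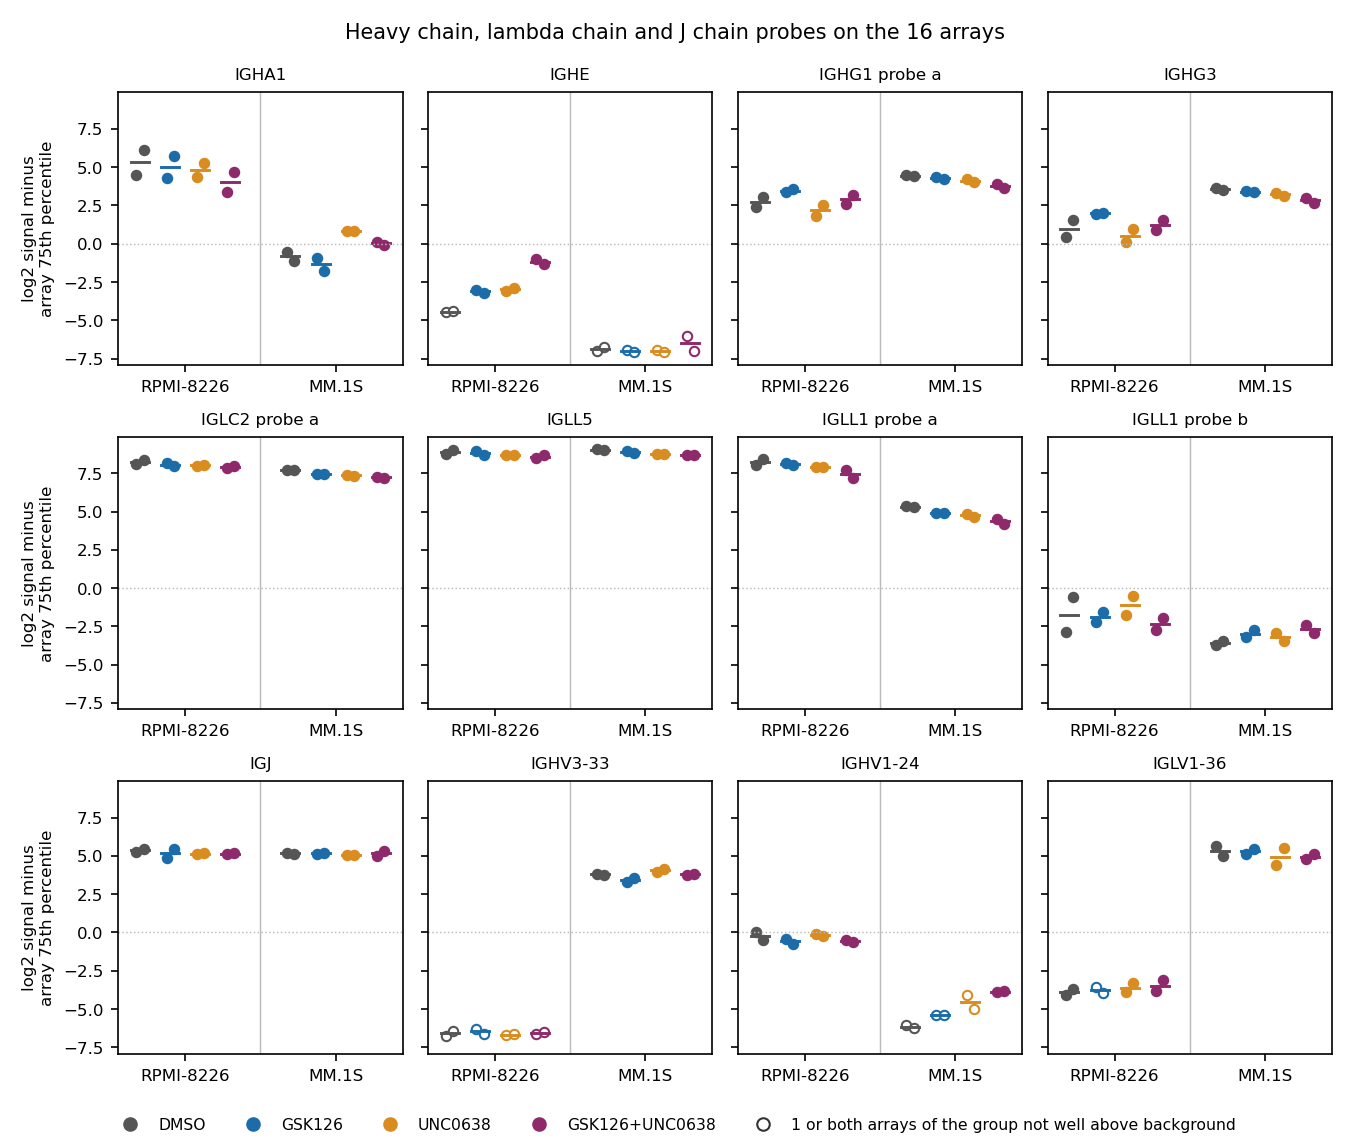
Level of 12 heavy chain, lambda chain, lambda-like and J chain probes on each of the 16 arrays, drawn as for the kappa probes. IGHE rises in RPMI-8226 cells from -4.48 and -4.39 to -1.01 and -1.34, IGHV3-33 and IGLV1-36 separate the lines under every treatment, and IGJ stays between 4.88 and 5.47 on all arrays.

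Set directly against GSK126 in MM.1S cells, the combination treatment was higher at 15 and lower at 10 of the 50 described probes. Of all 25102 probes 37.1% were called there, 3794 higher and 5518 lower. Compared with UNC0638 the combination treatment was higher at 5 and lower at 5, where 13.5% of all probes were called, 1513 higher and 1866 lower. Kappa V probes made up 6 of the 15 and 4 of the 5 that were higher. Some kappa V probes, among them IGKV3-7 and IGKV3-15, passed the filter in MM.1S cells through the combination treatment alone, so these counts support nothing further. Under the 16-array percentile the split against GSK126 was 20 higher and 3 lower, and under quantile normalization 17 and 2.

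The fourth comparison tested whether the change with treatment differed between the lines, as an interaction term over all 16 arrays. For the combination treatment 12 of the 60 described probes were called, 2 with a more positive change in RPMI-8226 cells and 10 with a more negative one, against 13.3% of all probes, 7.28% more positive and 6% more negative. Of the 13 kappa V probes, 8 were called, all more negative in RPMI-8226 cells, with a median difference of -2.93. The difference was -4.77 for IGKV3-7, -4.69 for IGKV3-15, -4.40 for IGKV1-16 and -4.04 for IGKV1D-8 probe b (limma adjusted p between 1.40e-04 and 0.00130). After normexp background correction the same 8 were called, with a median of -1.60 and differences of -2.26, -2.22, -1.60 and -2.25 in the same order. Of the 8, only IGKV1-27 and IGKV1D-33 were above background on the MM.1S DMSO arrays. Of the others, IGKV1D-8 probe a was above background on no MM.1S array, so it has no measured change there. For the rest the MM.1S change is measured from background. IGHE (2.87) and IGHV3-13 (1.84) were more positive in RPMI-8226 cells, and after normexp these values were 1.4 and 0.60. The limit is that IGHE was not well above background on any MM.1S array, nor IGHV3-13 on any RPMI-8226 array. With the replicate block IGHA1 (-2.12, limma adjusted p = 0.00376) and IGHG1 probe a (0.86, limma adjusted p = 0.0147) were called as well. The block was fitted in both lines here, though MM.1S numbers were not taken as pairs. For GSK126, without the block, 2 of the 60 were called, both kappa V probes, where 0.783% of all probes were. For UNC0638 there were 2 of the 60, where 2.89% were. None of these probes, IGKV1-16, IGKV1D-8 probe b and IGHV1-24, was above background on either MM.1S DMSO array, so the MM.1S part starts from background. For GSK126 and UNC0638 the replicate block gave 8 and 5, where 1.79% and 5.42% of all probes were called. None of the 5 named probes was called in any of these.

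**Figure D4:**
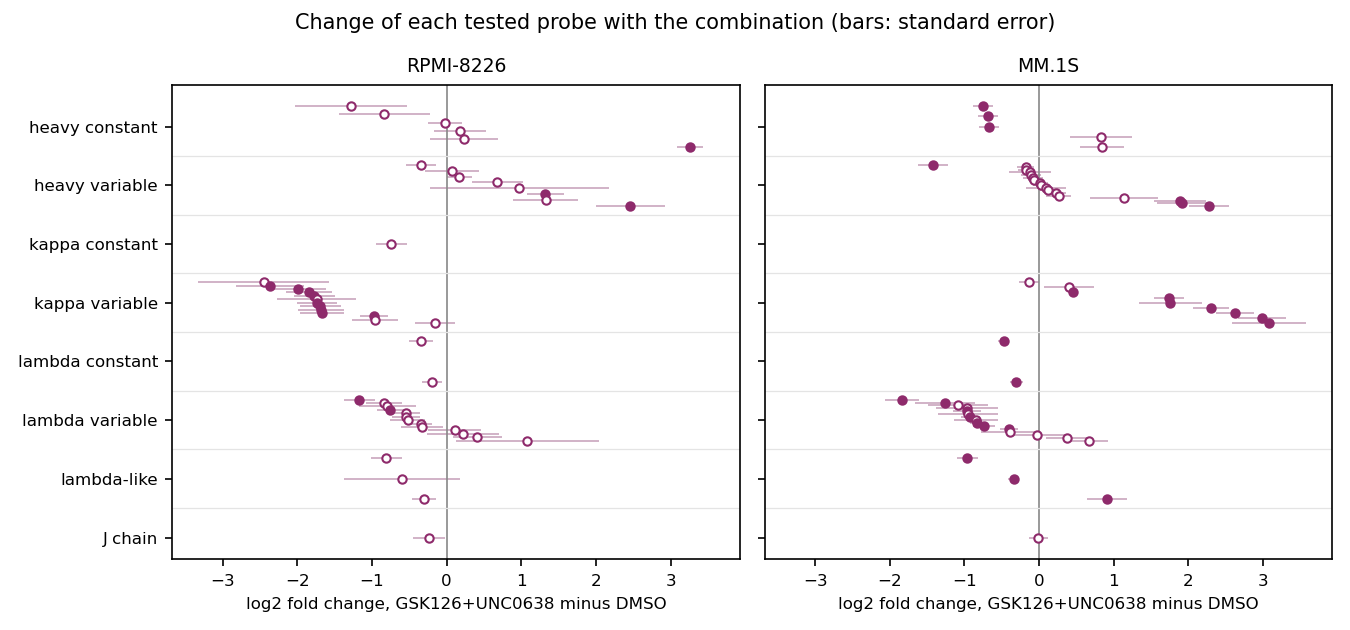
Log2 fold change of every tested probe with the combination treatment against DMSO, with its standard error, by chain, in RPMI-8226 cells (left) and MM.1S cells (right), where filled points have a limma adjusted p under 0.05. Of the kappa V probes, 9 of 13 are filled on the side of lower values in RPMI-8226 cells and 7 of 9 on the side of higher values in MM.1S cells.

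Genes that act on immunoglobulin production were taken from lists. Their counts stand beside those over all probes, of which the combination treatment raised 7.2% and lowered 5.17% in RPMI-8226 cells, and raised 22.2% and lowered 31.7% in MM.1S cells. Of the transcription factors of immunoglobulin genes, the combination treatment raised 3 of 18 tested in RPMI-8226 cells and lowered 2 (median -0.15), and 9 of 20 rose and 4 fell in MM.1S cells (median 0.15). IRF4, a factor that plasma cells need, fell 3.25-fold (limma adjusted p = 0.00316) and 2.27-fold (limma adjusted p = 7.34e-04). BCL6, a repressor of the plasma cell state, rose 4.04-fold (limma adjusted p = 0.00138) and at least 32.1-fold (limma adjusted p = 1.55e-04). BACH2, which also opposes that state, rose 2.78-fold in RPMI-8226 cells (limma adjusted p = 0.00653), as did SPIB, 2.50-fold (limma adjusted p = 0.0396). In MM.1S cells EBF1, an early B cell factor, rose at least 2.28-fold (limma adjusted p = 0.0165).

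Of the genes for the folding and secretion of antibody, 5 of 24 fell and none rose in RPMI-8226 cells (median -0.37), among them TXNDC5, a disulfide isomerase, 2.57-fold (limma adjusted p = 0.0171), FKBP11, 2.16-fold (limma adjusted p = 0.0207) and HSP90B1, the endoplasmic reticulum chaperone GRP94, 1.65-fold (limma adjusted p = 0.0309). In MM.1S cells 12 of 25 fell and 4 rose (median -0.35), where 53.9% of all probes were called. CALR, the chaperone calreticulin, fell 1.71-fold (limma adjusted p = 9.10e-04), while DNAJB9, a co-chaperone, rose 1.91-fold (limma adjusted p = 0.00102). Of the factors of immunoglobulin mRNA processing none of 7 was called in RPMI-8226 cells (median -0.17), and 1 of 7 rose and 3 fell in MM.1S cells (median -0.18), with CSTF2 1.65-fold lower (limma adjusted p = 0.0143).

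The membrane partners of immunoglobulin gave no call among 6 in RPMI-8226 cells (median 0.22) and 3 rises of 6 in MM.1S cells (median 0.42), with BTK, a kinase of B cell receptor signalling, 2.50-fold higher (limma adjusted p = 4.64e-04). For recombination, class switching and hypermutation none of 9 was called in RPMI-8226 cells (median -0.28), and 6 of 9 fell in MM.1S cells (median -0.60), where 12.4% and 53.9% of all probes were called, with UNG, the uracil glycosylase that acts in both switching and hypermutation, 2.23-fold lower (limma adjusted p = 0.00331).

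Markers of other cells moved with the treatment. Summed over a list, levels are given as multiples of the array's 75th percentile. The 8 plasma cell genes summed to 255 to 295 with DMSO in RPMI-8226 cells and 162 to 208 with the combination treatment, and to 533 to 543 and 360 to 361 in MM.1S cells. All 8 fell in MM.1S cells, while RPMI-8226 cells had 3 that fell and 1, SLAMF7, that rose (29.8-fold, limma adjusted p = 0.00138). The sum of the 5 B cell genes went from 0.308 to 0.735 up to 2.32 to 3.85 in RPMI-8226 cells and stood at 6.06 to 6.75 and 6.77 to 6.78 in MM.1S cells, with 1 of 3 and 2 of 3 called higher, MS4A1 in both. That of the 6 T and NK cell genes went from 0.617 to 0.75 up to 6.29 to 6.88 and from 0.890 to 0.908 up to 1.56 to 1.71, where 4 of 5 rose in RPMI-8226 cells, and 3 of 5 rose and 1 fell in MM.1S cells. That of the 5 myeloid genes went from 0.572 to 0.961 up to 4.46 to 5.21 and from 0.222 to 0.224 up to 0.682 to 0.841, with 2 of 3 and 1 of 2 called higher. Of the T and NK cell genes, CD3D, CD2 and CD8A were above background on all 8 arrays of each line, CD3E on 4 RPMI-8226 and 5 MM.1S arrays, NKG7 on 2 and 1, and GNLY on 0 and 8. Of the myeloid genes, CD14 was on all 8 of each line, CSF1R on 8 and 0, ITGAM on 5 and 8, FCN1 on 0 and 1, and MPO on none. The part of these markers in the immunoglobulin results was not tested.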

How the data were processed

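Total RNA of 16 samples was hybridised to 1-colour arrays, 1 array per sample. The authors deposited the scanner output, which gives every spot a background-subtracted, linear intensity (Feature Extraction 10.7.3.1 per the file headers, 10.7 in the submitters' processing notes), not normalized between arrays. The methods name Gene Spring GX and no test for the arrays. Columns of the authors' own comparisons were not used here.

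Of 62976 spots, 4259 controls were left out, as were spots marked as outliers. The log2 intensity minus the array's 75th percentile was taken, with the mean over repeat spots. A probe was tested if some group in the fit had it well above background on both arrays, with limma (3.58.1, R 4.3.3; lmFit and eBayes), over the 8 arrays of a line or over all 16 for differences between lines, with Benjamini-Hochberg adjustment over all probes in the fit (threshold 0.05). The fits were tested on simulated data. Groups are those of the labels, and 2 arrays per group and signal over background limit the precision.

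The members, the gene lists and the tests were chosen with earlier results of these data known. The probes known only by their description were added after the array's annotation was read, by name and not by value. Of the 88 segment names in their descriptions, 85 are in RefSeq. The text names the constant region, J chain and lambda-like probes past the filter, up to 5 called probes with the largest rise and fall with the combination treatment in each line, the 5 with the largest difference between the lines under DMSO in each direction, and up to 4 called genes of each list, with exceptions said where they stand. The lists were transcription factors of immunoglobulin genes, folding and secretion, mRNA processing, membrane partners, recombination with switching and hypermutation, and markers of plasma, B, T and NK, and myeloid cells, of which 1 gene is not reported here.

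Replicate numbers were checked as pairs. The correlation of same-numbered arrays' deviations from their group means lay between 0.254 and 0.415 in the 6 pairs of RPMI-8226 groups, which were taken as paired on this check, while MM.1S groups had 0.0847 to 0.225, with 5 of 6 pairs over 0.1. The numbers also follow the row of the slide. Alternatives were no filter, a filter for every array of the fit, a percentile over probes above background on all 16 arrays, quantile normalization, normexp background correction (offset 50), the series value table, the replicate number as a block and leaving out each array.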

Additional observations from a re-analysis of the deposited data

Results flagged for a closer look

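The change with treatment differed between the lines at 16 points, each by an interaction term over all 16 arrays with limma (adjusted p under 0.05), given as RPMI-8226 minus MM.1S on the log2 scale. With the combination treatment IGKV3-7 (-4.77), IGKV3-15 (-4.69), IGKV1-16 (-4.40), IGKV1D-43 (-4.13), IGKV1D-8 probe b (-4.04), IGKV1-27 (-3.41), IGKV1D-33 (-2.45) and IGKV1D-8 probe a (-1.51) were more negative in RPMI-8226 cells. The heavy chain V probes IGHV1-24 (-2.62) and IGHV1-46 (-1.74) were as well. IGHE (2.87) and IGHV3-13 (1.84) were more positive there, though IGHE was above background on no MM.1S array and IGHV3-13 on no RPMI-8226 array. Of the kappa V probes listed with the combination treatment, only IGKV1-27 and IGKV1D-33 were above background on the MM.1S DMSO arrays. IGKV1D-8 probe a was above background on no MM.1S array. With GSK126 alone IGKV1-16 (-2.22) and IGKV1D-8 probe b (-2.04) differed, and with UNC0638 alone IGKV1-16 (-2.18) and IGHV1-24 (-1.56). None of these probes was above background on either MM.1S DMSO array. Leaving out each of the 8 arrays of a comparison in turn ended the call in 6 of 8 cases for IGKV1-16 with either agent alone, in 7 for IGKV1D-8 probe b with GSK126 and for IGHV1-24 with UNC0638, and, with the combination treatment, in 5 for IGKV1D-8 probe a and in 3 for IGHV1-46. The other 10 were called in every case. After normexp background correction IGHV1-46 (-0.31) and, with UNC0638 alone, IGKV1-16 (-0.57) and IGHV1-24 (-0.13) were not called. Groups of 2 arrays are too small to look for single arrays that stand apart.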

How the results depend on the processing

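Counts below are of described probes called, unless the named probes are meant. Of 194 counts under alternatives that leave no array out, 155 stayed within 1.5 times, 29 became smaller and 10 larger. Of 543 changes of single named probes under them, 491 kept their sign and side of the threshold, 28 lost the call, 13 gained one and 11 turned in sign. The alternatives for the described probes were added after the data were seen. The causes were not tested, except that a filter for every array tests fewer probes. With that filter 12 probes differed between the lines under DMSO, 2 for the line difference of the combination treatment and 0 for those of the single agents. It left 15 for the combination treatment in MM.1S cells and 6 against UNC0638, and in RPMI-8226 cells 0 for each agent and against GSK126, with 1 named probe for the combination treatment. Without a filter there were 0 in RPMI-8226 cells for each agent, 2 against UNC0638 and 0 for the GSK126 line difference, and in MM.1S cells 5 for UNC0638, 13 against GSK126 and 0 against UNC0638. In MM.1S cells 0 named probes were then called for UNC0638 and against GSK126, as also with the 16-array percentile and with quantile normalization.

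Normexp gave 4 for GSK126 and 19 against UNC0638 in MM.1S cells, 1 against GSK126 and 0 for UNC0638 in RPMI-8226 cells with 1 named probe for the combination treatment, and 0 for the UNC0638 line difference. The 16-array percentile gave 1 for GSK126 in MM.1S cells and 4 against UNC0638 in RPMI-8226 cells. Quantile normalization gave 0 for GSK126 and 1 against GSK126 in RPMI-8226 cells, and 1 for the GSK126 line difference. The replicate block gave 9 for GSK126, 2 for UNC0638 and 1 named probe for the combination treatment in RPMI-8226 cells. With MM.1S numbers blocked as well, it gave 8 and 5 for the line differences of GSK126 and UNC0638. It changed no other such count by over 1.5 times. For the DMSO difference between the lines no block could be fitted. In MM.1S cells, where the numbers were not taken as pairs, the block gave IGHA1 a limma adjusted p of 0.0231 with the combination treatment.

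Signs turned for IGHG1 probe b in RPMI-8226 cells (0.0065 with normexp, 0.11 with the 16-array percentile, 0.079 with quantile normalization), for IGHV3-74 probe a in MM.1S cells (0.0074 and 0.075 with the last 2), and for IGJ there (0.18 and 0.43, the latter with a limma adjusted p of 0.0292). With quantile normalization they also turned for IGJ (0.019) and IGLC2 probe b (0.067) in RPMI-8226 cells and for IGLL5 (0.010) and IGLV1-36 (0.048) in MM.1S cells.

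Leaving out each array in turn gave, in RPMI-8226 cells, 0 to 0 calls for GSK126, 0 to 1 for UNC0638, 3 to 12 for the combination treatment, 1 to 2 against GSK126 and 1 to 2 against UNC0638. In MM.1S cells it gave 0 to 1, 4 to 6, 20 to 23, 9 to 19 and 0 to 7 in the same order. The line differences were 50 to 51 under DMSO, 0 to 7 for GSK126, 0 to 2 for UNC0638 and 10 to 14 for the combination treatment. Named probes gave 1 to 2 under DMSO and 0 to 1 for the line difference of the combination treatment, and in MM.1S cells 1 to 3 for the combination treatment, 0 to 1 against GSK126 and 0 to 0 for UNC0638. With the combination treatment the change ranged in RPMI-8226 cells from -1.83 to 0.16 for IGHA2, -0.14 to 0.50 for IGHG1 probe a, -0.23 to 0.19 for IGHG1 probe b, -0.35 to 0.81 for IGHG3 and -1.74 to 0.55 for IGLL1 probe b. In MM.1S cells it ranged from -0.030 to 0.052 for IGHV3-33, -0.0059 to 0.054 for IGHV3-35 and -0.19 to 0.17 for IGJ.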
